A study of Bos taurus with 17 samples.

Results

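The AP-1 and EGR immediate early genes are transcription factor genes that cells switch on within minutes of a stimulus, and their transcripts were followed here in cow cumulus cells at 3 stages of oocyte development. The 10 genes listed were FOS, FOSB, FOSL2, JUN, JUNB, JUND, EGR1, EGR2, EGR3 and IER2. They were chosen by name, through the gene symbol or gene description that the array files give to each non-control probe. A probe was found for 9 of the 10 genes, of 15440 distinct gene symbols on the array, and EGR3 had none. All 9 probes were well above background on all 17 arrays and passed the filter on low signal, as did 10768 of the symbols. NC1 cells surrounded immature oocytes in follicles of 3 to 6 mm from 6 prepubertal calves aged 3 to 6 months, and C1 cells surrounded immature oocytes from 6 adult cows of various ages, aspirated in the same way. Both came from ovaries taken after slaughter, and only complexes with a compact cumulus were kept. C2 cells surrounded mature oocytes of 5 non-lactating Holstein cows aged 3 to 5 years, taken by ovum pick up (needle aspiration in the living animal) from follicles of more than 8 mm, with an expanded cumulus. These cows had received progestagen implants, a preparation of FSH and LH for superovulation, and prostaglandin F2α 60 h before the pick up. The sources used here give no breed for NC1 and C1 and describe no hormone treatment of them. Animal age thus changed together with NC1 and C1, and maturation, hormone treatment, follicle size and the way of collection changed together between C1 and C2, so these cannot be told apart. The labels name the tissue as ovarian follicles, whereas the methods describe cumulus cells removed from the complexes.

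AP-1 is a dimer of 1 Jun protein (JUN, JUNB, JUND) with another Jun protein or with a Fos protein (FOS, FOSB, FOSL2), and it binds a short palindromic DNA element. EGR1, EGR2 and EGR3 are zinc finger proteins that bind GC-rich elements, and IER2 is a small nuclear protein encoded by another gene of the same early response. In granulosa cells the surge of LH, acting through cyclic AMP and the MAP kinases, is known to induce several of these genes transiently, and handling or warming of a tissue can induce them as well. In rodent granulosa cells, JunD and Fra-2 (the product of FOSL2) are the AP-1 members known to persist as the cells luteinize.

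Stretches of the probes are shown here in lower case as deposited by the authors, 30 bases each, on the strand given. The capitals mark ATTTA, the core of AU-rich elements that are known to speed mRNA decay, in FOS and JUNB. They mark AATAAA, the signal for polyadenylation, in IER2 and in the second FOSB probe, and TGA in the first FOSB probe. JUND and FOSL2, on which the stage results turn, held neither ATTTA nor AATAAA in the 60 bases of the probe, and are shown without capitals.
FOS: acttgaatgaaaaATTTAagcattgtttgc
JUNB: cggtttctaaaggATTTAttttaatttgtg
IER2: agaatcgccagataggaaAATAAAgaccaa
FOSB: tcgccctcccttcttgctctgTGAgcttta
FOSB second probe: tgcactgtcgccAATAAAaaactcttaaaa
JUND: ccggtgttgttttcagtaaagtctcgttaa
FOSL2: gtggtctgaatagtaaagctcttcatttct
ATTTA occurred in 2 of the 9 member probes and in 7.87% of the 15256 probe sequences deposited, and AATAAA in 1 of the 9 and in 14.3%. Only the given strand was searched. The first FOSB probe, A_73_110915, is open for 17 codons when read from its first base, and the TGA at base 52 ends that frame. The second FOSB probe, A_73_101823, is named in the array files by an expressed sequence tag with a description of FOSB, so it falls outside the rule and was described beside the first without being counted. The EGR2 probe, A_73_104588, carries a gene number that was absent from the RefSeq gene list of assembly ARS-UCD2.0, and its identity rests on the description in the array files. Because no build is stated with the files, positions in the genome were left out.

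Each sample was read on 1 Agilent array with 1 colour. Values below are log2 scaled signals, the log2 of a probe's background-subtracted signal minus the median of that value over the array, so that 0 is the median probe of the array. The arrays' median signals lay between 64.2 (NC1 replicate 5) and 208 intensity units, and no spot was saturated. Of 10 cumulus and granulosa markers listed, the 9 with a valid probe were well above background on all 17 arrays, among them FSHR, AMH, FOXL2 and INHA. KITLG, without a valid probe, was so on 2 of 6 NC1, 3 of 6 C1 and 5 of 5 C2 arrays. Its means were -3.60, -4.09 and 0.94, highest in C2, whereas FSHR, AMH and FOXL2 were lower in C2. From C1 to C2, 5 of 5 valid cumulus expansion genes rose. The 5 C2 arrays did not scatter evenly. Replicates 1 and 5 lay close to each other (SD of their log2 difference over all valid probes, 0.444), as did replicates 3 and 4 (0.512), while the median over all pairs of C2 arrays was 1.24. No source says that these pairs share an animal. Each pair was averaged into 1 sample, or left out (a choice made after the values were seen), and the values are given beside the members whose call or direction this changed.

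**Figure D1:**
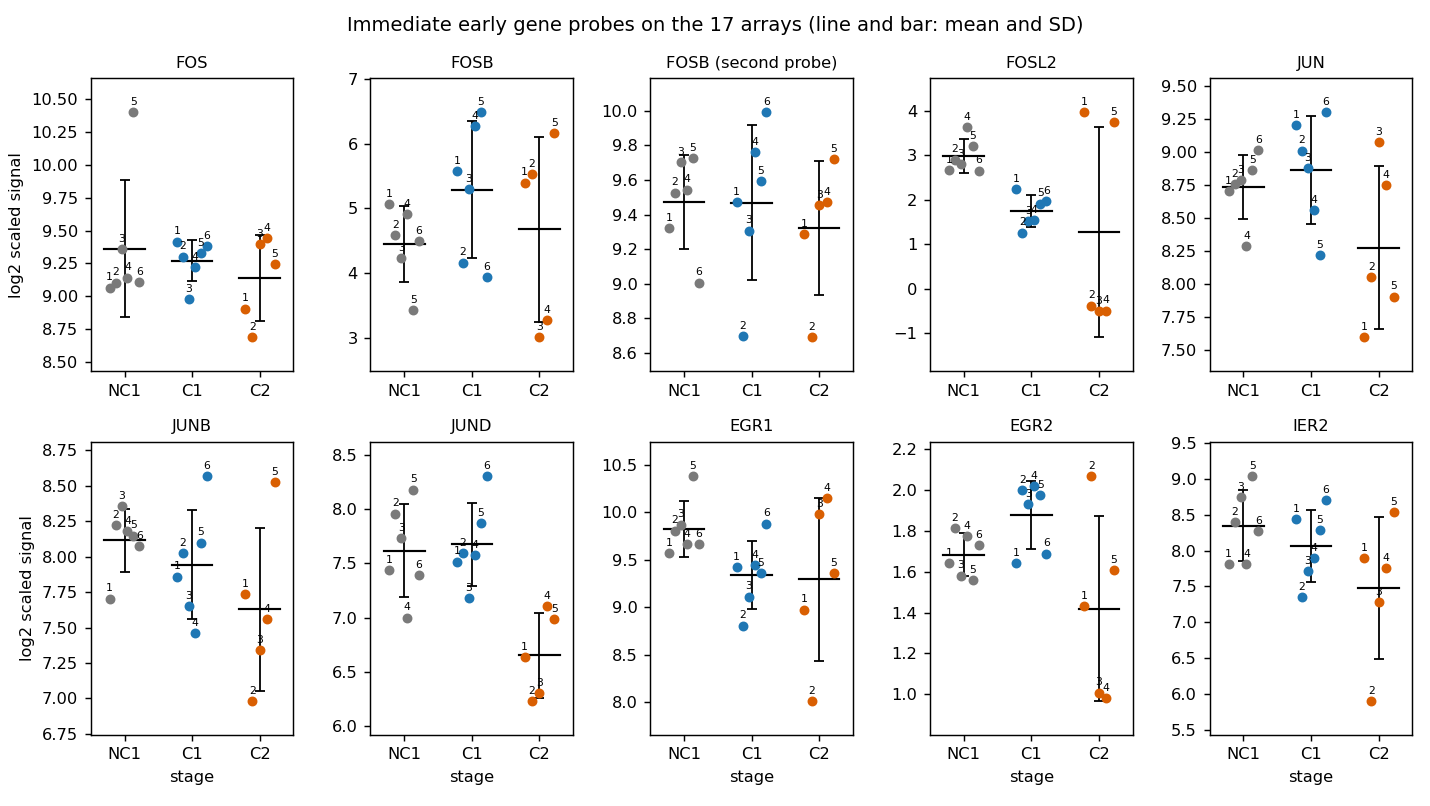
Log2 scaled signal of the 10 probes (y axis) on each array of the stages NC1, C1 and C2 (x axis). Points are single arrays with their replicate number, and the line and bar give mean and SD (n = 6, 6 and 5). JUND is the only gene whose 5 C2 arrays (6.23 to 7.11) all lie below its 6 C1 arrays (7.18 to 8.31), and FOSL2 of C2 falls into a high pair and a low group of 3.

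FOS, the founding Fos subunit, differed little between stages. In NC1 it ranged from 9.07 to 10.40 with a median of 9.12, and in C1 from 8.98 to 9.41 with a median of 9.31. The C2 arrays read 8.90, 8.68, 9.40, 9.44 and 9.24 for replicates 1 to 5. The stages overlapped throughout, and the highest value was that of NC1 replicate 5, which stood 1.04 above the next calf array. The means were 9.36 ± 0.52 (SD, n = 6) in NC1, 9.27 ± 0.16 (n = 6) in C1 and 9.13 ± 0.33 (n = 5) in C2, and no neighbours in that order differed beyond their spread. The difference between C2 and C1 was -0.14 with a 95% confidence interval of -0.61 to 0.34 and an adjusted p of 0.662 in limma, an interval that lies within 1 log2 unit of 0. Between scan days the sign of this difference varied (-0.43 on day 1 with 3 arrays a stage, and 0.25 on day 2 with 2 and 3).

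The 2 FOSB probes did not behave alike. FOSB encodes a further Fos subunit, and its first probe spread widely within each stage, from 3.43 to 5.06 in NC1 (median 4.54) and from 3.94 to 6.48 in C1 (median 5.44). In C2 the replicates read 5.40, 5.52, 3.01, 3.28 and 6.16, so that replicates 3 and 4 were more than 2 units below the other three. Its SD was 0.58, 1.05 and 1.43 in NC1, C1 and C2, larger than that of 88.5%, 98.3% and 93.7% of the valid probes of the same stage. The second FOSB probe ranged only from 8.69 to 9.99 over all 17 arrays, with stage means of 9.47, 9.47 and 9.32. No stage difference passed the test for either probe, and the largest of the first probe was 0.84 ± 0.54 (SE) for C1 against NC1 (adjusted p 0.670). The first probe read -0.62 in C2 against C1 with all arrays, and 0.41 (adjusted p 0.564) with C2 replicates 3 and 4 left out. From NC1 it read 0.22 with all arrays, and -0.52 (adjusted p 0.511) with replicates 1 and 5 left out.

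FOSL2, the gene of Fra-2, had the widest spread of the group in C2 and was the only member whose C1 and NC1 arrays did not overlap. In NC1 it read from 2.66 to 3.64 with a median of 2.85, and in C1 from 1.26 to 2.24 with a median of 1.73. In C2 replicates 1 and 5 read 3.97 and 3.75, above every other array, and replicates 2, 3 and 4 read -0.38, -0.50 and -0.49, below every other array. The C2 mean of 1.27 ± 2.37 (SD, n = 5) therefore describes none of its arrays.

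Between C1 and NC1, FOSL2 was lower by 1.24 in C1, or 2.36-fold, with all 6 cow arrays below all 6 calf arrays. Among all valid probes, 2.1% had C1 and NC1 arrays that did not overlap. In the fit of all 17 arrays, whose shared spread takes in the split of C2, the SE was 0.67 and the adjusted p 0.582. When the 12 arrays of C1 and NC1 were fitted alone, a choice made after the values were seen, the SE was 0.21 and the adjusted p 0.0058, and 0.555% of all probes passed. The direction was the same on both scan days, with -0.89 on day 1 and -1.59 on day 2 (3 arrays a stage on each). Other lists moved between the same arrays, and their part in the FOSL2 difference was not tested. The mean over 9 oocyte markers lay between 1.34 and 2.45 in NC1 and between -3.38 and 1.31 in C1, with no overlap. That over 13 leukocyte markers lay between -1.94 and -1.03 in NC1 and between -2.62 and -1.81 in C1. Theca and stroma markers overlapped, from 2.43 to 3.49 in NC1 and from 1.66 to 3.30 in C1. In such bulk samples, fewer cells of a type and less RNA per cell cannot be told apart.

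Between C2 and NC1, FOSL2 differed by -1.71 (95% confidence interval -3.18 to -0.24, adjusted p 0.0595), and the size and the call turned on which C2 arrays were used. Without C2 replicate 1 or 5 it was -2.39 (adjusted p 0.0044) or -2.33 (adjusted p 0.0072), and without replicate 2, 3 or 4 it lay between -1.30 and -1.27 (adjusted p 0.153 to 0.169). With each close pair averaged it was -1.99 (adjusted p 0.0272), and with array weights -0.70 (adjusted p 0.393). Against C1 it was -0.47 with an interval of -1.94 to 1.00, and its sign differed between scan days (0.41 on day 1, -1.94 on day 2). With replicates 1 and 5 left out, which leaves the 3 low arrays, FOSL2 read -3.44 from NC1 (adjusted p 9.3e-09) and -2.20 from C1 (adjusted p 1.6e-06). With replicates 3 and 4 left out it read -0.53 from NC1 (adjusted p 0.544) and 0.71 from C1 (adjusted p 0.429). The mean over the theca and stroma list was high on the same C2 arrays as FOSL2, at 4.54 and 4.18 on replicates 1 and 5. It was 2.58, 3.16 and 2.89 on replicates 2, 3 and 4, with 9 of 9 genes well above background on each. Its genes spread unequally over the C2 arrays. The SD was 0.39 for CYP17A1, 0.47 for INSL3, 0.46 for COL1A1, 0.90 for DCN and 0.94 for LUM. It was 1.55 for ACTA2, 1.71 for PDGFRA, 2.86 for COL3A1 and 2.62 for COL1A2, which had no valid probe. The mean over the cumulus and granulosa list was low on C2 replicates 1 and 5, at 4.48 and 4.12. On replicates 2, 3 and 4 it was 5.23, 5.55 and 5.58. These genes were unequal too, with C2 SDs of 0.14 for FOXL2, 0.44 for NR5A2, 0.47 for FSHR and 0.55 for FST. The SD was 0.66 for KITLG, 0.69 for AMH, 0.74 for INHA, 1.31 for HSD17B1, 1.78 for INHBA and 2.99 for CYP19A1. The part of these lists in the FOSL2 values was not tested. Over all 17 arrays, the 5 named genes whose signal followed FOSL2 most closely were MYLK (Pearson's r 0.96), TAGLN, PABPC1L, NOC2L and KCNIP4 (0.93), of 11554 named probes searched. MYLK encodes myosin light chain kinase and TAGLN the actin-binding protein transgelin, both abundant in smooth muscle. These coefficients describe arrays that share stages and close C2 pairs. TAGLN read 5.18 and 4.77 on C2 replicates 1 and 5, and 0.36, -0.37 and -0.36 on replicates 2, 3 and 4. NOC2L split in the same way, at 4.35 and 4.06 on replicates 1 and 5, and -1.45, -0.53 and -0.54 on replicates 2, 3 and 4. Which cells these genes came from was not tested.

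**Figure D2:**
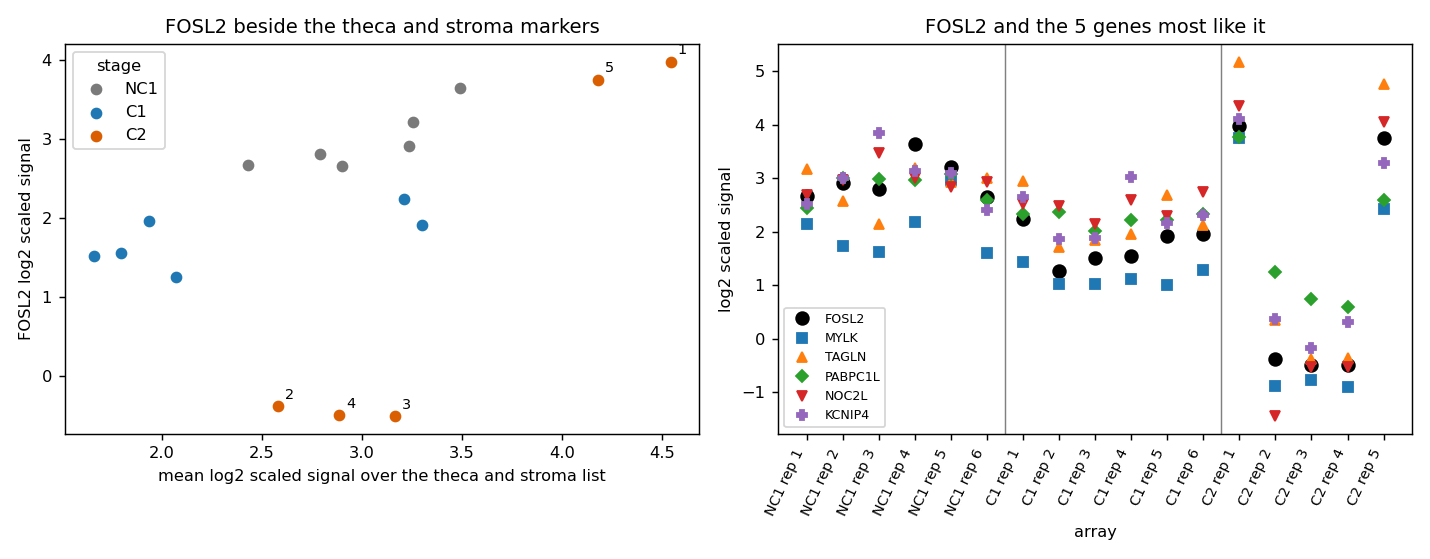
Left, FOSL2 log2 scaled signal (y axis) against the mean log2 scaled signal of the 9 theca and stroma markers (x axis), 1 point per array, coloured by stage, with C2 replicate numbers. Right, log2 scaled signal (y axis) of FOSL2 and of the 5 genes most like it on each array (x axis). C2 replicates 1 and 5 are at 3.97 and 3.75 for FOSL2, and replicates 2, 3 and 4 near -0.5.

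JUND, the Jun subunit that is generally expressed in resting cells and restrains growth, was the member with a stage difference past the threshold. In NC1 it ranged from 7.00 to 8.18 with a median of 7.58, and in C1 from 7.18 to 8.31 with a median of 7.59. The C2 replicates read 6.63, 6.23, 6.31, 7.11 and 6.99. All 5 C2 arrays lay below all 6 C1 arrays, and 4 of the 5 lay below all 6 NC1 arrays, NC1 replicate 4 being the calf array that reached into the C2 range.

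JUND was thus 2.03-fold lower in C2 than in C1 (-1.02 ± 0.24 SE, adjusted p 0.0025) and 1.95-fold lower than in NC1 (-0.96 ± 0.24, adjusted p 0.0040), while C1 and NC1 differed by 0.06 (95% confidence interval -0.43 to 0.54). It was the only 1 of the 9 members called in C2 against C1, where 28.1% of all valid probes were called (12.8% lower in C2), and the only 1 whose arrays did not overlap, where 21.6% of all did not. It was likewise the only 1 of 9 called in C2 against NC1, where 28.1% of all were called, with 0 of 9 free of overlap against 20.9% of all, and the only 1 of 9 in the test over the 3 stages (adjusted p 0.0035), where 28.6% of all were called. That last call was lost with the slide block (adjusted p 0.0114), the replicate block (0.0144), array weights (0.0478) and the close C2 pairs averaged (0.0108), without C2 replicate 2 (0.0124) or 3 (0.0149), and without replicates 3 and 4 together (0.0123). The members' share of calls was therefore below that of all probes in each of these comparisons. The lower level in C2 was found on both scan days, at -1.28 (3 arrays a stage) and -0.74 (2 against 3) from C1, and at -1.24 and -0.67 from NC1. On day 2 the C2 arrays were the close replicates 3 and 4 alone, so the days also split the close pairs. Against C1 the call was lost under weighting of the arrays (-0.82, adjusted p 0.0233) and in no other setting run. Against NC1 it was lost with the slide block (-0.99, adjusted p 0.0101), the replicate block (-0.92, adjusted p 0.0129), normexp background correction (-0.75, adjusted p 0.0407) and array weights (-0.79, adjusted p 0.0293). The adjusted p also crossed 0.01 when C2 replicate 2 or 3, or NC1 replicate 2 or 5, was left out (-0.90 to -0.85, adjusted p 0.0107 to 0.0128), and in a fit of C2 and NC1 alone, with 20.8% of all probes called (adjusted p 0.0104). The fit of C2 and C1 alone, with 21.9% of all called, kept the call (adjusted p 0.0054).

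**Figure D3:**
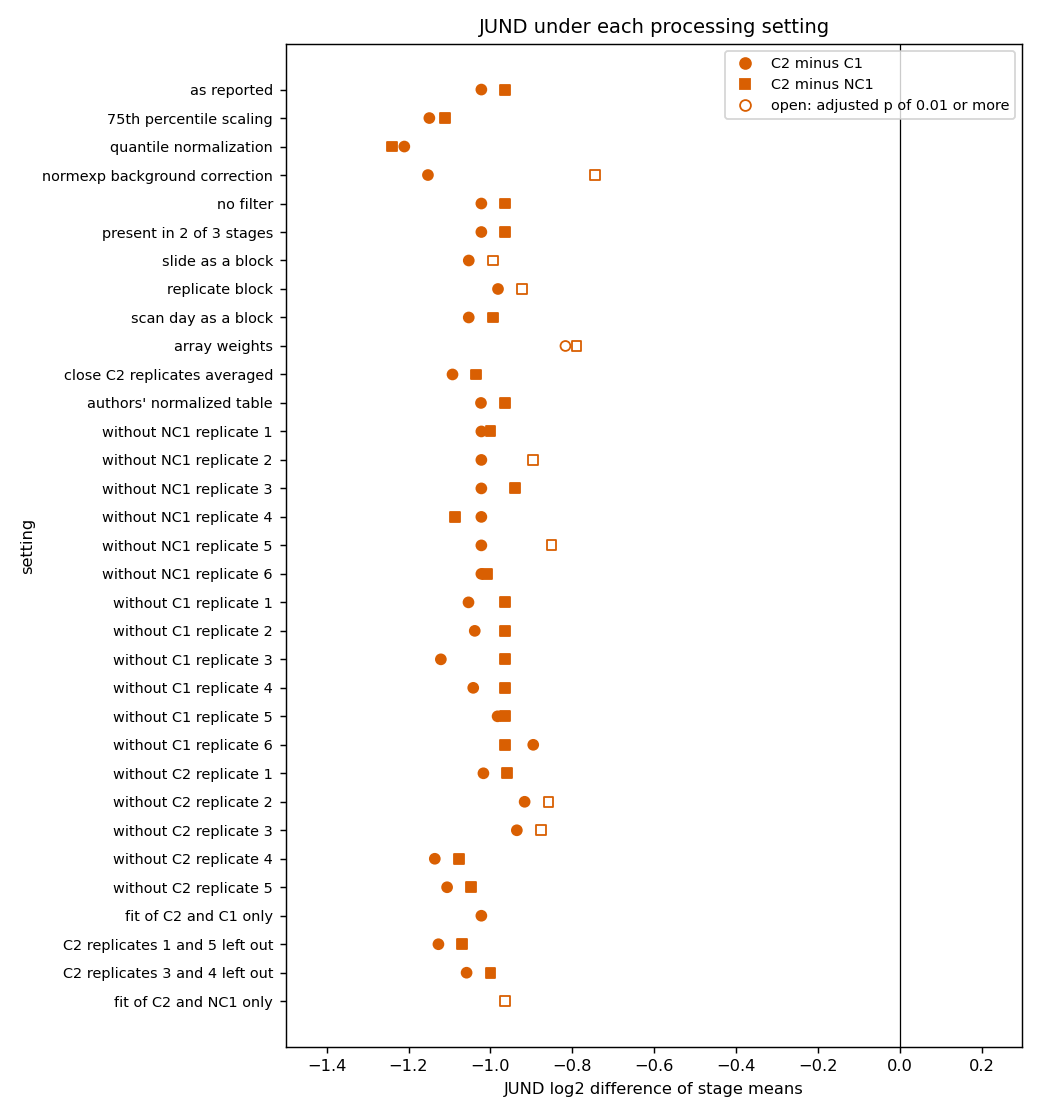
JUND difference of stage means in log2 units (x axis) for C2 minus C1 (circles) and C2 minus NC1 (squares) under each processing setting (y axis). Filled symbols have an adjusted p under 0.01. The differences lie between -1.24 and -0.75 in every setting shown, and 1 circle is open.

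JUN and JUNB, the other Jun subunits, were lower on average in C2 without passing the test. JUN ranged from 8.29 to 9.02 in NC1 (median 8.77) and from 8.22 to 9.30 in C1 (median 8.94), and read 7.60, 8.05, 9.08, 8.75 and 7.90 in C2. C2 replicates 1, 2 and 5 lay below all arrays of the other stages, whereas replicates 3 and 4 lay within their range. The difference from C1 was -0.59 ± 0.26 (SE, adjusted p 0.0774) and that from NC1 -0.46 ± 0.26 (adjusted p 0.168). With C2 replicates 3 and 4 left out, they were -1.01 (adjusted p 0.0029) and -0.88 (adjusted p 0.0073).

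JUNB, an early response subunit, ranged from 7.70 to 8.36 in NC1 (median 8.16) and from 7.46 to 8.57 in C1 (median 7.94). Its C2 replicates read 7.73, 6.98, 7.34, 7.56 and 8.53, with replicate 5 close to the highest C1 array and replicate 2 the lowest of all arrays. The difference was -0.32 ± 0.25 (SE, adjusted p 0.325) from C1 and -0.49 ± 0.25 (adjusted p 0.124) from NC1. Quantile normalization brought the latter past the threshold (-0.76, adjusted p 0.0067), and so did leaving out C2 replicates 1 and 5 (-0.82, adjusted p 0.0095).

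Whether the Jun transcripts changed unequally was read from ratios within each array, which do not depend on the scaling between arrays and were added after the values were seen. The log2 ratio of JUND over JUNB was -0.98 ± 0.41 (SD, n = 5) in C2 and -0.27 ± 0.21 (n = 6) in C1, a difference of -0.71 with a 2-sided exact permutation p of 0.0087, or 0.0519 after Benjamini-Hochberg adjustment over the 6 ratio comparisons. The ratio of JUND over JUN differed by -0.44 between C2 and C1 (exact permutation p 0.299, adjusted 0.358). No ratio differed at an adjusted 0.05.

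EGR1, a zinc finger factor induced by LH in ovarian follicles, was highest on average in calves, and no stage difference passed the test. It ranged from 9.57 to 10.38 in NC1 (median 9.73) and from 8.80 to 9.88 in C1 (median 9.39). In C2 the replicates read 8.97, 8.01, 9.98, 10.15 and 9.36, so that the single lowest value of all arrays was in C2 while 2 of its arrays lay above all C1 arrays. The means were 9.82 ± 0.29 (SD) in NC1, 9.34 ± 0.36 in C1 and 9.29 ± 0.86 in C2. C1 was lower than NC1 by 0.49 ± 0.29 (SE, adjusted p 0.639), with 5 of the 6 cow arrays below all calf arrays. C2 and C1 differed by -0.04 with a 95% confidence interval of -0.69 to 0.60. Within scan days this small difference was made of -0.77 on day 1 and 0.94 on day 2, on which C2 was represented by the close replicates 3 and 4 alone. Without these, EGR1 read -0.56 from C1 (adjusted p 0.140) and -1.04 from NC1 (adjusted p 0.0081). With replicates 1 and 5 left out it read 0.04 from C1 (adjusted p 0.936).

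EGR2, a related factor best known from myelinating cells, varied little in the immature stages. It ranged from 1.56 to 1.81 in NC1 (median 1.68) and from 1.64 to 2.02 in C1 (median 1.95), and 0.981% of the valid probes had a smaller SD in NC1 than its 0.10. In C2 it read 1.43, 2.07, 1.01, 0.98 and 1.61, with replicates 3 and 4 low and replicate 2 the highest of all arrays. The difference from C1 was -0.46 ± 0.18 (SE, adjusted p 0.0554), and without C2 replicate 2 it was -0.62 (adjusted p 0.0053). With C2 replicates 3 and 4 left out it was -0.17 (adjusted p 0.478), and that from NC1 turned from -0.26 to 0.02 (adjusted p 0.941). IER2 passed the test in no comparison of all arrays. It ranged from 7.81 to 9.04 in NC1 (median 8.33) and from 7.35 to 8.70 in C1 (median 8.09), and read 7.90, 5.91, 7.29, 7.76 and 8.53 in C2. C2 replicate 2 stood lowest by more than 1 log2 unit. The differences were -0.59 ± 0.38 (SE, adjusted p 0.223) from C1 and -0.87 ± 0.38 (adjusted p 0.0729) from NC1, the latter -1.13 (adjusted p 0.0079) under quantile normalization and -1.36 (adjusted p 0.0081) without C2 replicates 1 and 5.

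As a group, the members leaned towards lower signal in C2. The difference of C2 from C1 was negative for 9 of 9 members, from -1.02 (JUND) to -0.04 (EGR1), with a median of -0.47, while over all valid probes the median was 0.02 and 48.9% were negative. Leaving out C2 replicates 3 and 4 made it positive for FOSB and FOSL2, and leaving out replicates 1 and 5 for EGR1. Array weights made it positive for FOSL2 and JUNB, and leaving out C2 replicate 1, C2 replicate 2 or C1 replicate 6 for EGR1. Within scan days it was positive for FOSB and FOSL2 on day 1, and for FOS, JUN and EGR1 on day 2. From NC1 it was negative for 8 of 9, FOSB being the exception at 0.22, with a median of -0.49 against 0.11 over all valid probes. C1 and NC1 were compared among animals that were all sampled after slaughter. In that comparison 4 members were higher in C1 and 5 were lower, with a median of -0.09. None of the 9 was called in the limma fit of all stages, where 0.0577% of all probes were called. There 0 of the 9 had an unadjusted p under 0.05, beside 9.84% of all valid probes. That fit takes the spread of C2 into this comparison. In the limma fit of C1 and NC1 alone, chosen after the values were seen, FOSL2 was called (adjusted p 0.0058), with 0.555% of all probes called. EGR1 had an unadjusted p of 0.0225 there (adjusted p 0.218), and the other members lay above 0.05. C2 is compared with both other stages, so the first 2 medians share the same 5 arrays.

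**Figure D4:**
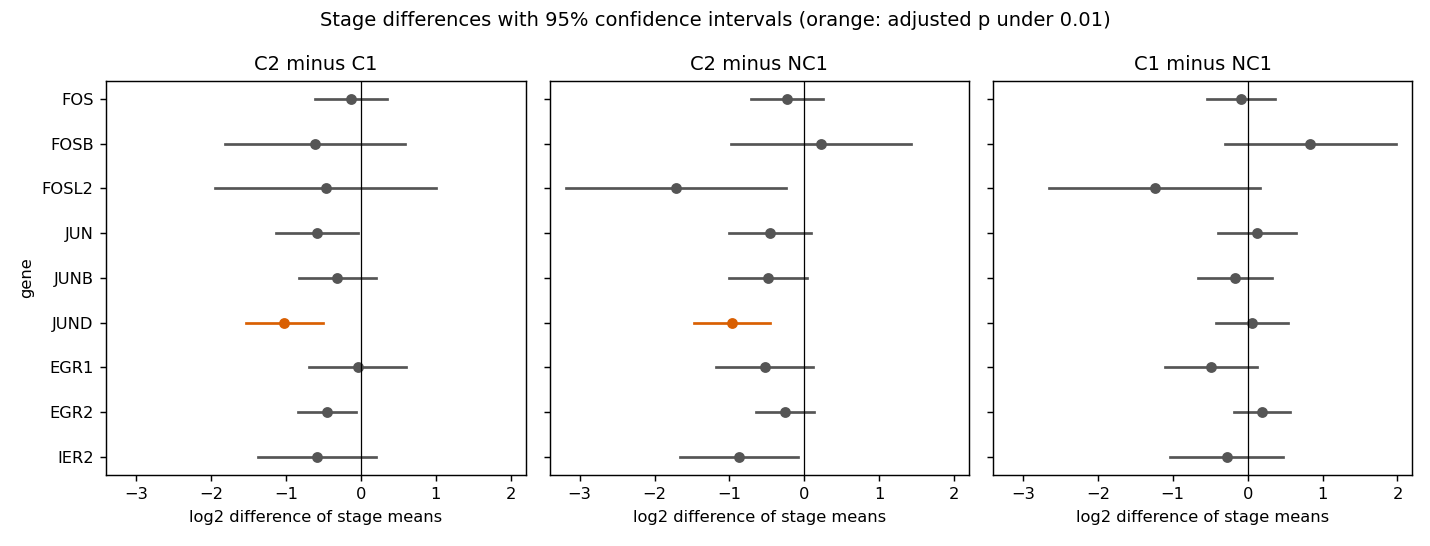
Difference of stage means in log2 units (x axis) with 95% confidence intervals for the 9 members (y axis) in the 3 comparisons. Orange marks an adjusted p under 0.01. JUND at -1.02 and -0.96 is the only member in orange, and all 9 points lie below 0 in C2 minus C1.

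Single arrays also differed within each stage, most widely in C2. The median SD of the members was 0.38 in NC1, 0.38 in C1 and 0.61 in C2, beside 0.34, 0.33 and 0.50 over all valid probes, and 5, 7 and 6 of the 9 members had an SD above that median of all probes. In C2, replicate 2 was the lowest array for 5 members (FOS, JUNB, JUND, EGR1 and IER2), and 7 of 9 members lay below the stage mean there. It was also the C2 array with the lowest mean over the leukocyte list (-2.27, the others 0.20 to 0.75) and over the cumulus expansion list (4.15, the others 5.76 to 6.14), and it had the lowest weight of all arrays in limma (0.283). The part of these in its member values was not tested. In C1, replicate 6 was the highest array for 5 members (JUN, JUNB, JUND, EGR1 and IER2), and replicate 5 had 8 of 9 members above the stage mean. In NC1, replicate 5 was the highest for FOS, JUND, EGR1 and IER2 and the lowest for FOSB and EGR2. This array also had the lowest median signal of all, and its part was not tested.

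**Figure D5:**
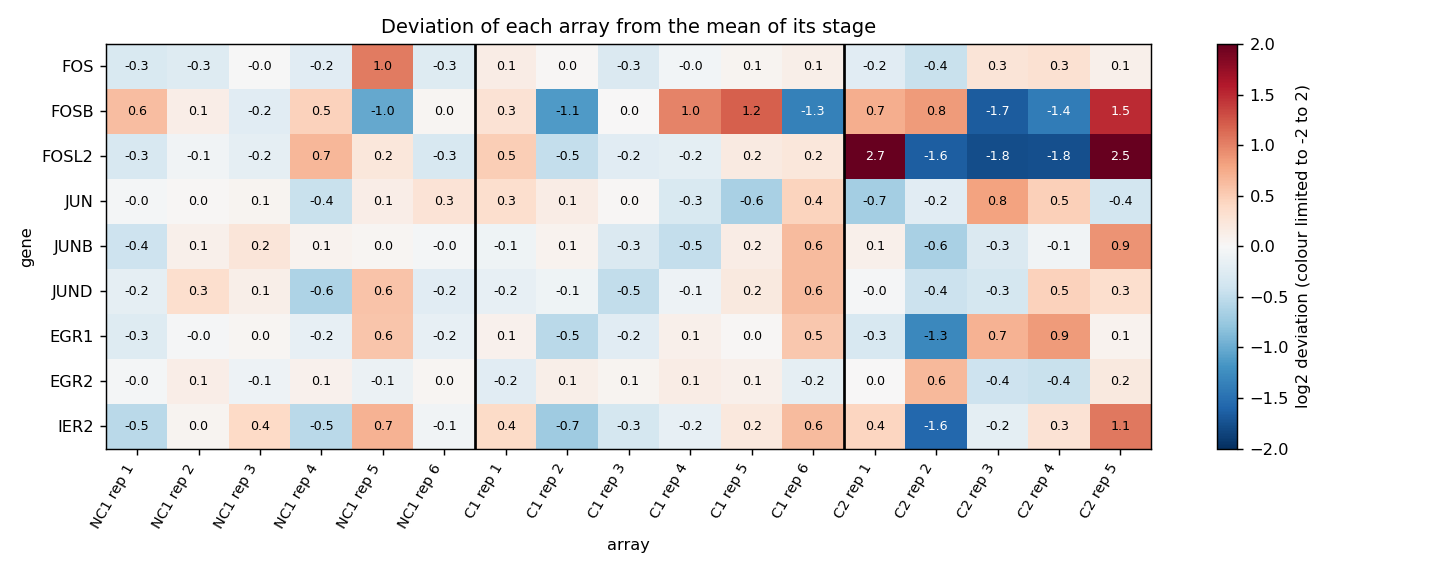
Deviation of each array from the mean of its own stage in log2 units (colour, with the value printed) for the 9 members (rows) and 17 arrays (columns, stages separated by black lines). The deepest colours are those of FOSL2 and FOSB in C2, and IER2 and EGR1 of C2 replicate 2 are at -1.6 and -1.3.

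Partners and relatives of these factors were read from a list of their own. Of 11 AP-1 relatives with a valid probe, 2 rose and 1 fell in C2 against C1, a share near that of all valid probes (15.3% rose and 12.8% fell), with a median of -0.06. MAF, a large leucine zipper factor, was higher by 2.72 ± 0.50 (SE, adjusted p 2.7e-04), and JDP2, a Jun dimerization protein that represses AP-1, by 2.49 ± 0.50 (adjusted p 6.0e-04). ATF3, a stress-induced partner of Jun proteins, was lower by 1.71 ± 0.46 (adjusted p 0.0064). FOSL1, the gene of Fra-1, was lower in C2 than in NC1 only by the test (-2.34 ± 0.66, adjusted p 0.0082), since against C1 it read -0.43 (adjusted p 0.627). The difference between these comparisons was not tested. Of 2 EGR partners with a valid probe, NAB1, a corepressor of EGR proteins, rose by 0.79 ± 0.21 (adjusted p 0.0058) and WT1 differed by -0.23 (adjusted p 0.695).

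Among 27 other immediate early genes with a valid probe, 4 rose and 7 fell in C2 against C1, with a median of -0.22. The largest falls were those of MYC, the growth-promoting factor (-4.78 ± 0.62 SE, adjusted p 7.9e-06), HES1, a target of Notch (-3.73 ± 0.62, adjusted p 1.1e-04), and the nuclear receptor NR4A1 (-1.82 ± 0.36, adjusted p 5.5e-04). NFKBIA, the inhibitor of NF-kappaB, rose by 2.29 ± 0.32 (adjusted p 1.5e-05). Of 15 valid genes for SRF, the ELK factors and the MAP kinases that drive the early response, 7 rose and 1 fell, with a median of 0.69. ELK3 rose by 2.76 ± 0.37 (adjusted p 9.5e-06), MAP2K1 by 2.26 ± 0.25 (adjusted p 1.3e-06) and RPS6KA3 by 2.00 ± 0.39 (adjusted p 4.5e-04), and RPS6KA5 fell by 1.58 (adjusted p 0.0013). Of 14 valid genes known as AP-1 or EGR targets, 7 rose and 1 fell, with a median of 1.503. The largest rises were those of MMP1 (4.86 ± 0.42 SE), IL8 (4.82 ± 0.96), PTGS2 (4.75 ± 0.47) and TIMP1 (4.59 ± 0.53), and VEGFA fell by 3.72. In this comparison 15.3% of all valid probes rose and 12.8% fell.

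Heat shock genes, which also respond to handling, were given beside the members. None of 11 with a valid probe was called in C2 against C1 in limma (5 at an unadjusted p under 0.05), where 28.1% of all were. Of the same 11, 2 were lower in C2 than in NC1, where 12.6% of all valid probes were lower. HSPA1A, an inducible chaperone, differed by -1.80 ± 0.29 (SE, adjusted p 8.2e-05) and DNAJB1, a cochaperone, by -1.23 ± 0.32 (adjusted p 0.0047). Between C1 and NC1, none of the 120 list genes with a valid probe was called in limma, where 0.0577% of all probes were. These 120 include the cell type markers. Of them 33 had an unadjusted p under 0.05 in limma, beside 9.84% of all valid probes. Among the 33 were 3 of 3 oocyte, 5 of 8 leukocyte and 4 of 9 granulosa markers, and 4 of 11 heat shock genes. No cumulus expansion gene was among them. Because the lists were chosen with earlier results of these data known, the larger share is no test of the lists.

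Markers of other cells moved between the stages in which JUND fell, and their part in that difference was not tested. Of 8 valid leukocyte markers, 4 rose and none fell in C2 against C1, and the mean over the 13 with a probe lay between -2.62 and -1.81 in C1 and between -2.27 and 0.75 in C2, with 9 to 10 and 10 to 13 genes above background. The general leukocyte marker PTPRC had no probe, and the T cell marker CD3E was above background on 0 of 6 C1 and 4 of 5 C2 arrays. Of 9 valid granulosa markers 6 fell in C2 against C1. Of 8 theca and stroma markers 2 rose, and of 6 endothelial markers 1 rose. Over all valid probes 15.3% rose and 12.8% fell in C2 against C1, and whether these counts depart from those shares was not tested. Of the 2 red blood cell markers with a valid probe none was called, and ALAS2 was at background on all arrays but 1. Of 3 valid oocyte markers none was called in C2 against C1 (2 at an unadjusted p under 0.05). The valid filter leaves out oocyte genes that were at background in C2. Over the 9 with a probe, the mean lay between -3.38 and 1.31 in C1 and between -3.50 and -2.84 in C2. From 5 to 9 of these genes were above background on each C1 array, and 3 to 6 on each C2 array. Against NC1, all 3 valid markers were lower in C2, with a median of -3.30. The mean over the 9 lay between 1.34 and 2.45 in NC1 and between -3.50 and -2.84 in C2, with no overlap. In that comparison 6 of 9 granulosa markers fell, 2 of 8 leukocyte markers and 1 of 8 theca and stroma markers rose, and of 6 endothelial markers 1 rose and 1 fell. Over all valid probes 15.5% rose and 12.6% fell in C2 against NC1. On C2 replicates 1 to 5, JUND read 6.63, 6.23, 6.31, 7.11 and 6.99. The leukocyte list read 0.20, -2.27, 0.39, 0.39 and 0.75 on the same arrays, and a relation between them was not tested.

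Likeness over the 17 arrays differed between members. For EGR1 the 5 closest named genes were BRIX1 (Pearson's r 0.86), SNAPC1, SPAG1, NFYA and NXF1 (0.84), and for JUN they were RBM41 (0.91), ELF2, LRRK2, MFHAS1 and C1H3orf33 (0.87). Those of FOS were the ribosomal protein genes RPS18 (0.91), RPL9, RPSA, RPS12 and RPS6 (0.90). These coefficients are descriptions of 17 arrays that share 3 stages, 6 slides and 2 scan days, among 11554 named probes searched.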

How the data were processed

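Cow cumulus RNA from 17 samples was read on 1-colour Agilent arrays. The authors deposited, per the file headers, linear intensity values for each spot from Agilent Feature Extraction 10.5.1.1, background-subtracted and detrended without scaling to each other. A second deposited file held log2 values that the authors had scaled by array median in GeneSpring, with the probe sequences. Groups and replicate numbers are those of the labels. The members and gene lists were chosen with earlier results of these data known.

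A probe's value was the mean log2 signal of those of its spots that were neither non-uniform nor outliers, and each array's median over non-control probes was subtracted. Valid probes (13865 of 21475) were those present in 80% or more of each stage's arrays. A probe was present on an array where at least 50% of its spots were well above background, uniform and unsaturated. The 3 stages were fitted in 1 model with limma 3.58.1 (lmFit and eBayes, R 4.3.3), and p was adjusted across the valid probes by Benjamini-Hochberg and judged at 0.01. The moderated F tested all stages together. Confidence intervals (95%) come from the same fit. Ratios within arrays were compared by a 2-sided exact permutation test in scipy 1.17.1 (Python 3.11.15, numpy 2.4.6, pandas 2.3.3). The same test was run on all 27 comparisons of single members and is not reported. The methods name as many animals as samples at each stage, but no source ties a sample to an animal, so p-values measure the spread between these samples, which may be technical. The number of arrays limits the precision. On simulated data with the spreads of 13865 probes, C2 against C1 recovered 28% of changes of 1 log2 unit and 85% of changes of 2, with 2 false calls. The simulated arrays were independent, with the same spread of a probe at all stages and few probes changed. The real C2 arrays spread more widely and held close pairs, so these figures do not give the recovery or false calls of the real data.

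Named are all members with every probe, the genes of each list called in C2 against C1 with the 4 largest changes, list genes a sentence needs, and the 5 genes most correlated with EGR1, FOS and JUN, and with FOSL2, added after the values were seen. The same result for JUND is not reported here. The brightest valid probe stands for a list gene. Symbols came from RefSeq by accession (3524 probes) or gene number (9987), otherwise from the array files. Alternatives covered scaling, background correction, filters, slide, scan day and replicate blocks, array weights, the authors' table, and leaving out single arrays or close C2 pairs.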

Additional observations from a re-analysis of the deposited data

Results flagged for a closer look

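In 30 groups, the 10 probes at each of 3 stages, the highest and lowest array was set against the gap to its neighbour, relative to the group's whole range. About 1 group in 20 is picked out by chance. NC1 replicate 5 was picked out for FOS, at 10.40 against 9.07 to 9.36 on the other 5 calf arrays, with a gap of 0.781 of the range, and it remained the highest under 75th percentile scaling (0.7997 of the range) and under quantile normalization (0.753). The same array was picked out for EGR1, at 10.38 against 9.57 to 9.87, with a gap of 0.629 of the range. Under 75th percentile scaling the EGR1 gap was 0.392 of the range, and under quantile normalization this array was no longer the highest. Without NC1 replicate 5, FOS in C1 against NC1 turned from -0.09 to 0.12 (adjusted p 0.926).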

How the results depend on the processing

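The lower JUND signal in C2 kept its direction in every setting run. Of 9 members, 1 was called in C2 against C1 in all settings but array weights (0), leaving out a close C2 pair (below) and leaving out single arrays (1 to 2, EGR2 being added without C2 replicate 2). In C2 against NC1 the count was 3 under quantile normalization (JUND, JUNB and IER2) and 0 under normexp, the slide block, array weights and the fit of C2 and NC1 only, and 0 to 2 when single arrays were left out. In the test over the 3 stages it was 0 under the slide block, array weights and averaging of the close C2 replicates, and 0 to 1 when single arrays were left out (0 without C2 replicate 2 or 3). In C1 against NC1 it was 1 (FOSL2) in the fit of those 12 arrays, chosen after seeing the data, and 0 when single arrays were left out. With C2 replicates 1 and 5 left out, chosen after seeing the data, 2 members were called over the 3 stages, 2 in C2 against C1 (JUND and FOSL2), 4 in C2 against NC1 (JUND, FOSL2, JUNB and IER2) and 1 in C1 against NC1 (FOSL2, adjusted p 0.0059). With replicates 3 and 4 left out, likewise, JUN in place of JUND was the 1 called over the 3 stages, and 2 were called in C2 against C1 (JUND and JUN) and 3 in C2 against NC1 (JUND, JUN and EGR1). The cause was not tested. Over all probes, C1 against NC1 called 8, but 25 without a filter, 2 with the slide block, 239 with array weights (whose estimation stopped before convergence), 77 in the fit of C1 and NC1 only, 32 and 27 with C2 replicates 1 and 5 or 3 and 4 left out, and 1 to 19 without single arrays.

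Replicate numbers did not pair the samples, since the deviations of same-numbered arrays correlated between -0.32 and 0.25. With the replicate block, 0 members were called over the 3 stages and 0 in C2 against NC1 (JUND -0.92, adjusted p 0.0129), 1 in C2 against C1 (JUND -0.98, adjusted p 0.0089), and 0 probes at all in C1 against NC1.

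Relative to median scaling, the 75th percentile shifted the median of all probes by -0.13 (C2 against C1) and -0.15 (C2 against NC1), and normexp by 0.20 (C2 against NC1) and 0.26 (C1 against NC1). None of the sign changes below passed the test. Under normexp, FOS became 0.013 (C2 against NC1) and 0.23 (C1 against NC1), the second FOSB probe 0.090 and 0.33, and JUNB and IER2 0.16 and 0.047 in C1 against NC1. With array weights, FOS became 0.027 and the second FOSB probe 0.0059 in C1 against NC1, and FOSL2 became 0.52 and JUNB 0.012 in C2 against C1. Quantile normalization gave -0.030 for JUND in C1 against NC1. Leaving out C2 replicates 1 and 5 gave -0.52 for FOSB in C2 against NC1 and 0.043 for EGR1 in C2 against C1, and leaving out 3 and 4 gave 0.41 for FOSB and 0.71 for FOSL2 in C2 against C1 and 0.020 for EGR2 in C2 against NC1. Leaving out single arrays gave -0.15 to 0.12 (FOS), -0.11 to 0.15 (second FOSB probe) and -0.068 to 0.17 (JUND) in C1 against NC1. It gave -0.15 to 0.64 (FOSB) and -0.25 to 0.012 (second FOSB probe) in C2 against NC1, and -0.30 to 0.014 (second FOSB probe) and -0.26 to 0.28 (EGR1) in C2 against C1. EGR1 changed sign without C1 replicate 6, C2 replicate 1 or C2 replicate 2, and FOSB without C2 replicate 5. Of the other comparisons of single probes, 390 under other settings and 488 without single arrays kept direction and side of the threshold.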
